A study of Mus musculus with 6 samples.

Results

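The genes of the proteasome were examined in mouse insulinoma 6 (MIN6) cells, a mouse β cell line. Members were all protein-coding genes whose mouse symbol begins with Psma, Psmb, Psmc, Psmd, Psme, Psmf or Psmg followed by a digit, with *Psmb8*, *Psmb9* and *Psmb10*, the inducible immunoproteasome subunits, left out. This symbol rule used no expression value and gave 47 of the 53801 mouse genes listed. Of these, 43 encode subunits, regulators or assembly factors of the proteasome and are called canonical members here. The other members were *Psma8* and *Psmb11*, germ cell and thymus variants of 20S subunits, *Psme2b*, a single-exon relative of *Psme2*, and *Psmc3ip*, which carries the name of an interaction with *Psmc3* and encodes a meiotic recombination factor rather than a subunit.

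The proteasome degrades proteins that are marked with ubiquitin. Its 20S core is a barrel of stacked rings of α and β subunits, in which *Psmb5*, *Psmb6* and *Psmb7* supply the chymotrypsin-like, caspase-like and trypsin-like active sites, and its 19S particle binds, deubiquitinates, unfolds and translocates substrates through a base with 6 ATPases and a lid. In β cells the proteasome takes up misfolded proinsulin and other proteins retrieved from the endoplasmic reticulum, and its subunits are generally made in matched amounts.

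Messenger RNA was sequenced from 6 lines derived from MIN6 cells that express Cas9. Control lines (n = 3) carry a lentiviral guide RNA directed to intron 2 of *Snd1*, and *Snd1* KO lines (n = 3) carry 1 of 2 guides directed to exon 2. Cas9, guide vector and puromycin selection were thus shared by both groups. The paper's supplement shows KO 1 and KO 2 under guide 1 and KO 3 under guide 2, with a major deletion in KO 2. *Snd1* encodes a coregulator of transcription that binds PDX1, and the comparison asks which genes change when it is lost. Each line is 1 clone grown from a single cell and gave 1 library, so differences between clones of a group include anything fixed in the founder cell, and p-values measure the spread between these 6 clones.

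The deposited unit is TPM, the reads on a gene divided by a gene length and scaled to a sum of 1000000 in each library. Reads on genes, recovered from the steps in the TPM values, were between 23700683 and 30454618 per clone. These totals are estimates, since genes whose length did not match the annotation were given the smallest length that makes their reads whole. The totals lie above the number of reads per library that the paper gives, and the reason was not tested. Whether mates of a pair were counted apart is not given in the sources used here. Among genes with 1 to 50 reads the counts were even in 40.5% to 42.5%, and no expected share was computed. *Snd1* was at 113, 119 and 112 TPM in the controls and at 14.7, 57.1 and 19.9 TPM in *Snd1* KO clones 1, 2 and 3, without overlap, and KO 2 retained the most of the message (log2 difference of −2.11, limma adjusted p = 0.511). The β cell markers *Ins1*, *Ins2*, *Iapp*, *Pdx1* and *Nkx6-1* were each at or above 698.6 TPM in every clone, *Mafa* was between 419 and 1045 TPM and *Slc2a2* between 32.8 and 172 TPM. Of the acinar markers, *Cpa1* and *Prss1* had 0 reads in all 6 clones, which allows up to 3 reads in each, *Pnlip* had at most 2 reads and *Cela1* had 22, 15 and 0 reads in the controls and 9, 1 and 0 reads in *Snd1* KO. Of the δ cell markers, *Hhex* had 0 reads in all clones and *Sst* at most 9. Of the immune cell markers, *Ptprc* had at most 10 reads, *Cd74* at most 27 (control 3) and *Cd68* 15 to 45 reads in every clone. Of the α cell markers, *Gcg* was between 55.2 TPM (KO 2) and 1100 TPM (KO 1) and *Irx2* had at most 2 reads. The fibroblast marker *Pdgfra* was at 17.04, 7.28 and 2.19 TPM in the controls and at most 0.0987 TPM in *Snd1* KO. The other fibroblast markers were also highest in controls 1 and 2, since *Dcn* had 52, 59 and 3 reads in the controls and 4, 7 and 5 in *Snd1* KO, *Col1a1* had 34, 38 and 2 against 9, 8 and 15, and *Col1a2* had 32, 34 and 3 against 10, 18 and 19. The part of these markers in the values below was not tested.

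All 43 canonical members were expressed in every clone, with between 147 and 9973 reads per gene and clone. *Psma8* had 0 reads in all 6 clones and *Psmb11* had 0 to 2 reads, both at or under the floor of 3 reads. Together the canonical members took 0.434% to 0.514% of the reads on genes.

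**Figure D1:**
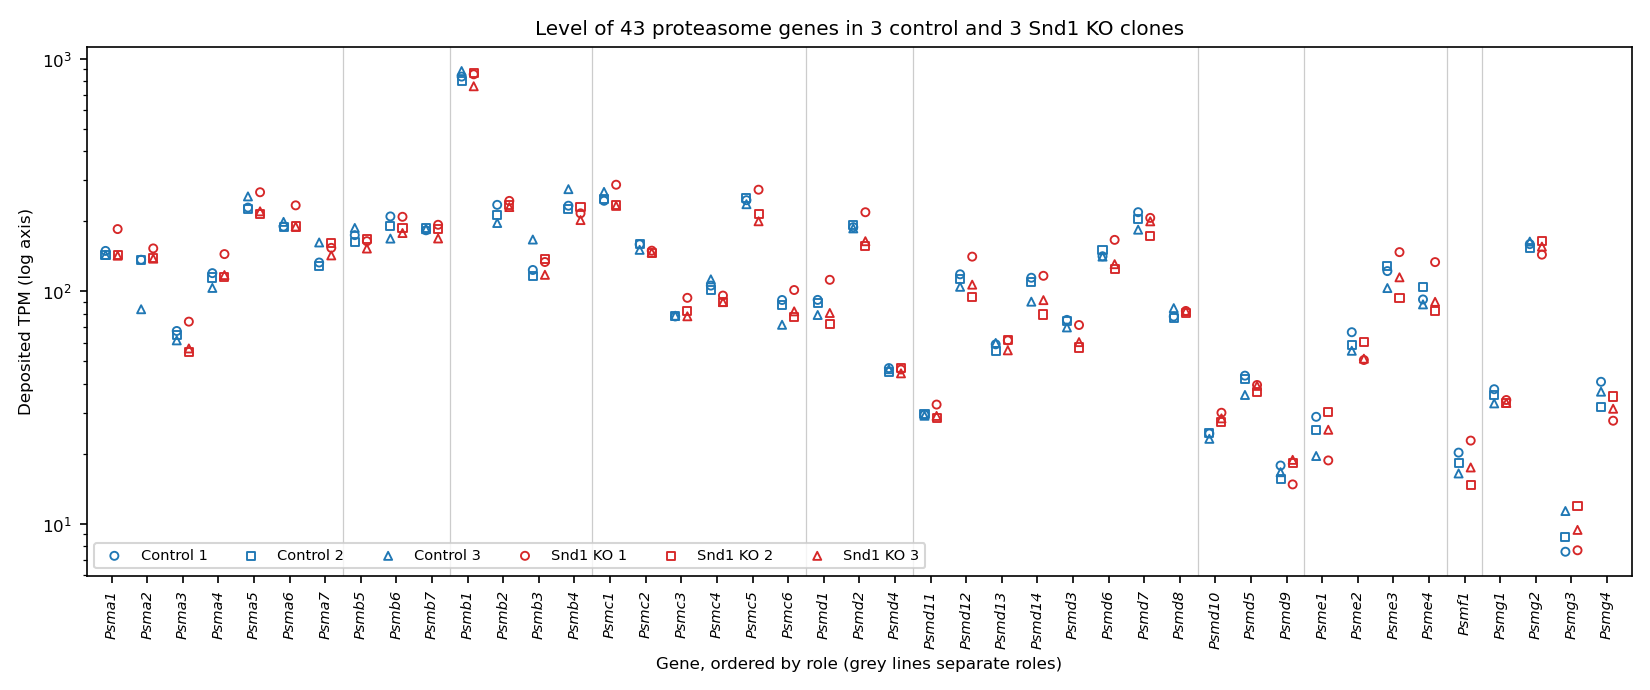
Deposited TPM (log axis) of the 43 canonical proteasome genes, ordered by role, in each of 3 control (blue) and 3 Snd1 KO (red) clones, 1 point per clone. For most genes the 6 points lie close together, Psmb1 stands highest (761 to 885 TPM) and Psmg3 lowest (7.56 to 11.9 TPM), and Psma2 has 1 low point in control 3 (83.5 TPM).

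Levels of different genes were compared per base of length, and the length mattered. The deposited TPM of 43 of the 47 members came out as whole reads when multiplied by the exon length summed over all annotated transcripts of the gene, a length that grows with the number of transcripts and lowers the TPM of genes with many. The remaining 4 members, *Psma7*, *Psmb1*, *Psmd2* and *Psmg2*, gave whole reads with a shorter length. The smallest such length was used for these 4, a multiple of it would also give whole reads and raise the level per principal transcript in proportion, and so their read counts and principal transcript levels and ranks are minima. For *Psmb1* it was 1036 bases, against a summed length of 6925 bases. Levels were therefore also recomputed from the recovered reads over the length of the longest principal transcript, a scale chosen after the data were seen. On the deposited scale the 14 genes of the 20S core spanned 63.1 TPM (*Psma3*) to 836 TPM (*Psmb1*). On the principal transcript scale the same genes spanned 90.4 TPM (*Psma2*) to 396 TPM (*Psma7*), and *Psmb1* ranked 13th of 43 at 232 TPM with this smallest length. The 6 ATPases of the 19S base spanned 3.11-fold on the deposited scale and 1.58-fold on the principal transcript scale. Over the 43 genes, the rank correlation between the scales was 0.704, as a description across genes that share the same reads.

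**Figure D2:**
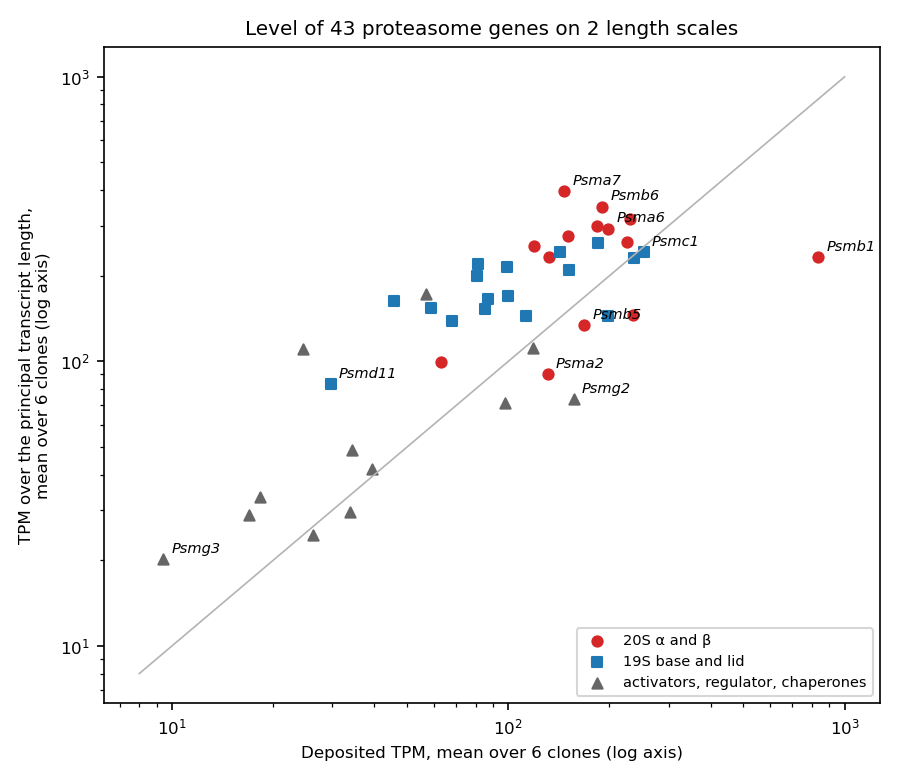
Mean level over 6 clones of the 43 canonical genes as deposited TPM (horizontal, log axis) and as TPM over the principal transcript length (vertical, log axis), with the line of equal values. Genes of the 20S core (circles) and the 19S particle (squares) lie mostly above the activators and chaperones (triangles), and Psmb1 moves from 836 to 232 TPM.

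On the principal transcript scale, as means over 6 clones, the α subunits that form the outer rings and the gate of the core were *Psma7* (396 TPM), *Psma6* (293 TPM), *Psma1* (277 TPM), *Psma4* (254 TPM), *Psma5* (146 TPM), *Psma3* (99.3 TPM) and *Psma2* (90.4 TPM). Of the β subunits, *Psmb6* (350 TPM), *Psmb4* (316 TPM), *Psmb7* (299 TPM) and *Psmb2* (262 TPM) were higher, and *Psmb3* (232 TPM), *Psmb1* (232 TPM) and *Psmb5* (134 TPM) lower. The ATPases of the 19S base lay close together, from *Psmc1* (241 TPM) over *Psmc5* (230.2 TPM), *Psmc3* (220.4 TPM), *Psmc4* (214 TPM) and *Psmc2* (210.3 TPM) to *Psmc6* (153 TPM). Of the other base subunits, the scaffold *Psmd2* was at 259.8 TPM, the scaffold *Psmd1* at 166 TPM and the ubiquitin receptor *Psmd4* at 162 TPM.

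The lid held *Psmd6* (242 TPM), *Psmd8* (199 TPM), the deubiquitinase *Psmd14* (169 TPM), *Psmd13* (154 TPM), *Psmd12* (145 TPM), *Psmd7* (144 TPM), *Psmd3* (139 TPM) and *Psmd11* (83.2 TPM). Of the alternative caps, *Psme2* was at 172 TPM, *Psme1* at 110.1 TPM, *Psme3* at 111 TPM and *Psme4* at 71.5 TPM, and the regulator *Psmf1* was at 33.5 TPM. The assembly chaperones stood at the lower end, with *Psmg2* (73.7 TPM), *Psmg1* (48.9 TPM), *Psmg4* (29.6 TPM) and *Psmg3* (20.2 TPM) for the 20S core and *Psmd5* (41.8 TPM), *Psmd9* (28.9 TPM) and *Psmd10* (24.5 TPM) for the 19S base. These chaperones help subunits come together and leave the finished particle. Of the 42 pairs of neighbours in this order, 39 had ranges over the 6 clones that overlapped. The 3 pairs that did not were *Psmd11* above *Psmg2*, *Psme4* above *Psmg1* and *Psmg1* above *Psmd5*. The place of *Psmg2* below *Psmd11* rests on the smallest length taken for *Psmg2*, whose level is a minimum.

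Comparing *Snd1* KO with control, no member was called. With limma on log2(TPM + 1), 45 members passed the filter of a mean of at least 0.5 TPM (*Psma8* and *Psmb11* did not). At an adjusted p-value under 0.05 with at least a 2-fold change, 0 of the 45 were called, against 0.00561% of the 17823 genes tested. At an unadjusted p-value under 0.05, 0 of the 45 passed with limma, against 7.96% of all genes tested (2.33% lower and 5.63% higher), and 0 passed with voom on the recovered reads, against 8.71%. Of the 45 members, 20 lay above 0, against 57.3% of all genes tested, and the median log2 difference was −0.017, beside 0.044 over all genes tested. The canonical members ranged from −0.22 (*Psmd3*) to 0.30 (*Psma2*). Under at least 1 alternative the direction turned in 28 of the 45, so that only the other 17 kept theirs, and no direction is read from small differences.

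The precision bounds the size of any difference. For 43 of 43 canonical members the 95% interval of the log2 difference lay within a 2-fold change in either direction, and for 42 of 43, all but *Psma2*, within 1.5-fold. Over all genes tested these shares were 66.6% and 35.1%. The median distance from the estimate to either bound was 0.30 on the log2 scale for canonical members, beside 0.53 for all genes.

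**Figure D3:**
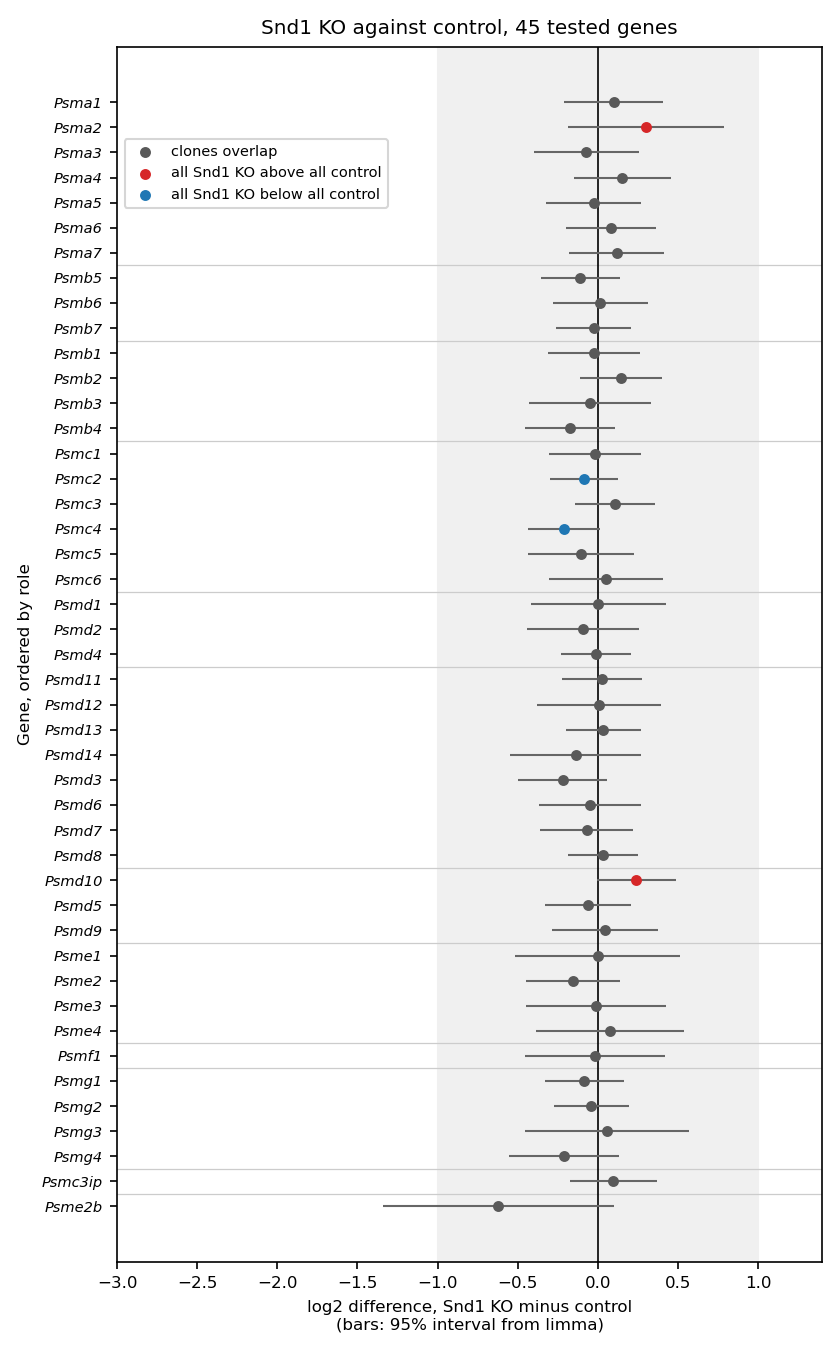
Log2 difference between Snd1 KO and control (n = 3 clones each) on the log2(TPM + 1) scale for the 45 tested members, with 95% intervals from limma; colour marks genes whose groups do not overlap and the shaded band spans a 2-fold change. All intervals of the 43 canonical genes lie inside the band and include 0, and the interval of Psme2b reaches from −1.34 to 0.10.

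The groups did not overlap for 4 of the 45 members, 2 higher and 2 lower in *Snd1* KO, beside 13.7% of all genes tested (9.69% higher and 4.03% lower). *Psmd10*, the 19S chaperone also known as gankyrin, had the lowest unadjusted p-value of the members. It was at 24.4, 24.5 and 23.1 TPM in the controls and at 30.0, 27.5 and 28.3 TPM in *Snd1* KO. Every *Snd1* KO clone was thus above every control (log2 difference 0.24 ± 0.10 SE, limma adjusted p = 0.607).

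*Psma2*, an α ring subunit, was the other gene that was higher without overlap. Its levels were 136, 136 and 83.5 TPM in the controls and 153, 139 and 138 TPM in *Snd1* KO. Control 3 alone stood apart, with 1763 reads, and the log2 difference of 0.30 ± 0.20 (SE, adjusted p = 0.715) was 0.066 without that clone. *Psma2* (ENSMUSG00000015671) lies on chromosome 13 (GRCm38, 14613240 to 14674236, plus strand), next to the divergent gene *Mrpl32*, a mitochondrial ribosomal protein gene. *Mrpl32* was also lowest in control 3, at 15.4 TPM against 20.7 to 22.9 TPM in the other clones, as were 28.9% of all genes tested. *AW209491*, which lies within the span of *Psma2*, was lowest in KO 2 (15.2 TPM, beside 16.3 TPM in control 3). Both genes were looked up after the values of *Psma2* were seen.

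*Psmc4* and *Psmc2*, ATPases of the 19S base, were lower without overlap. *Psmc4* was at 106, 101 and 112 TPM in the controls and at 95.6, 89.5 and 89.6 TPM in *Snd1* KO (log2 difference −0.21 ± 0.095 SE, adjusted p = 0.607). *Psmc2* was at 159, 159 and 150.5 TPM in the controls and at 149, 145 and 146 TPM in *Snd1* KO (−0.086 ± 0.089, adjusted p = 0.806). The gap between the lowest control and the highest *Snd1* KO clone was small for both. The other ATPases overlapped, with log2 differences of −0.018 for *Psmc1*, 0.11 for *Psmc3*, −0.11 for *Psmc5* and 0.052 for *Psmc6*. With 1 clone left out, *Psmc1* ranged from −0.12 to 0.035 and *Psmc3* from 0.033 to 0.16. *Psmc5* then ranged from −0.24 to −0.014 and *Psmc6* from −0.062 to 0.13.

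The catalytic β subunits were level between the groups within the spread of the clones. *Psmb5* was at 174, 162 and 187 TPM in the controls and at 164, 168 and 152 TPM in *Snd1* KO, overlapping (log2 difference −0.11 ± 0.10, 95% interval −0.35 to 0.14, adjusted p = 0.787, and −0.058 without control 3 or −0.069 without KO 3). *Psmb6* was at 209.5, 191 and 168 TPM in the controls and at 209, 188 and 178 TPM in *Snd1* KO (0.017 ± 0.12, interval −0.28 to 0.31, adjusted p = 0.982). Its direction turned under 5 of the alternatives and none is read from it. *Psmb7* was at 183, 187 and 185 TPM in the controls and at 193, 184 and 168 TPM in *Snd1* KO (−0.026 ± 0.098, interval −0.26 to 0.21, adjusted p = 0.959), with both the highest and the lowest clone among *Snd1* KO.

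The other β subunits form the remaining positions of the inner rings. *Psmb4* was at 233, 226 and 275 TPM in the controls and at 216, 230.2 and 202 TPM in *Snd1* KO, with control 3 the highest (−0.17 ± 0.12, adjusted p = 0.714, and −0.089 without control 3). *Psmb2* was at 235, 212 and 196 TPM in the controls and at 244, 236 and 229.9 TPM in *Snd1* KO, with 1 control among the *Snd1* KO values (0.15 ± 0.11, adjusted p = 0.738, and 0.084 without control 3). *Psmb1* and *Psmb3* differed by −0.025 and −0.049 on the log2 scale. Among the other α subunits the log2 differences were 0.10 for *Psma1*, −0.071 for *Psma3*, 0.15 for *Psma4*, −0.024 for *Psma5*, 0.083 for *Psma6* and 0.12 for *Psma7*, all with overlapping groups. Leaving out 1 clone moved *Psma1* between −0.024 and 0.16, *Psma3* between −0.20 and 0.0076 and *Psma4* between 0.050 and 0.21. It moved *Psma5* between −0.12 and 0.035, *Psma6* between −0.018 and 0.13 and *Psma7* between 0.054 and 0.22.

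In the lid, *Psmd3* had the lowest p-value. It was at 75.2, 74.7 and 69.8 TPM in the controls and at 71.5, 57.2 and 60.3 TPM in *Snd1* KO, where KO 2 and KO 3 lay below all controls and KO 1 did not (−0.22 ± 0.12, adjusted p = 0.639). *Psmd14*, which removes ubiquitin chains from substrates, was at 114, 109.8 and 90.1 TPM in the controls and at 116, 79.3 and 91.4 TPM in *Snd1* KO (−0.14 ± 0.17, interval −0.55 to 0.27, adjusted p = 0.845). The highest and the lowest value of *Psmd14* were both in *Snd1* KO clones, and its difference was −0.013 without KO 2, −0.073 without control 1, −0.24 without control 3 and −0.29 without KO 1. The remaining lid genes differed by 0.029 (*Psmd11*), 0.0071 (*Psmd12*), 0.036 (*Psmd13*), −0.049 (*Psmd6*), −0.070 (*Psmd7*) and 0.033 (*Psmd8*) on the log2 scale.

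*Psmd4*, the ubiquitin receptor also called RPN10, was the steadiest member. It was at 46.6, 45.01 and 46.1 TPM in the controls and at 46.0, 46.6 and 44.3 TPM in *Snd1* KO (log2 difference −0.0097 ± 0.091, interval −0.23 to 0.21, adjusted p = 0.988). Its coefficient of variation (CV, the SD as a share of the mean) over the 6 clones was 2.05%. The scaffolds *Psmd1* and *Psmd2* differed by 0.0043 and −0.092 on the log2 scale.

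*Psmg4*, a chaperone of 20S assembly, was at 40.7, 31.6 and 36.9 TPM in the controls and at 27.7, 35.2 and 31.2 TPM in *Snd1* KO, with overlapping groups (−0.21 ± 0.14, adjusted p = 0.718, and −0.13 without either control 1 or KO 1). The other chaperones differed by −0.085 (*Psmg1*), −0.040 (*Psmg2*), 0.060 (*Psmg3*), −0.060 (*Psmd5*) and 0.043 (*Psmd9*) on the log2 scale. *Psme2b* had the largest difference of the tested members and the lowest level. It was at 3.34, 2.64 and 1.69 TPM in the controls and at 1.85, 1.44 and 0.672 TPM in *Snd1* KO, on 3 to 16 reads per clone, with overlapping groups (−0.62 ± 0.30, adjusted p = 0.609). Its difference was −0.40 without KO 3, −0.95 with a pseudocount of 0.1 and −0.97 with voom. Since 52% of its windows of 100 bases also occur in *Psme2*, reads of both genes cannot be told apart with certainty. *Psmc3ip* differed by 0.097 on the log2 scale.

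The activator subunits *Psme1* and *Psme2*, which build the interferon-inducible 11S cap, lie near each other on chromosome 14 (55578123 to 55581529 and 55587441 to 55591113 in GRCm38). They differed by 5.4e-05 and −0.15 on the log2 scale. With 1 clone left out, *Psme1* ranged from −0.15 (without control 3) to 0.18 (without KO 1). *Psme2* ranged from −0.23 (without KO 2) to −0.080 (without control 1). *Psme3*, the nuclear 11S cap, and *Psme4*, the large cap PA200, differed by −0.011 and 0.075, and the regulator *Psmf1* by −0.017.

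Summed over the complex, the level was also close in both groups. The 43 canonical members summed to 5678 ± 76.9 TPM in the controls and 5633 ± 451 TPM in *Snd1* KO (mean ± SD, n = 3 each), or 99.2% of control. By clone the sum was 5762, 5612 and 5660.4 TPM in the controls and 6147, 5452 and 5300.5 TPM in *Snd1* KO, so the *Snd1* KO clones held both the highest and the lowest values. The 20S core was at 100.9% of control and the 19S base and lid at 96.7% in deposited TPM. On the principal transcript scale these were 102.6% and 97.8%, and by share of reads 101.6% and 96.9%.

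The differences between clones ran across the groups. *Snd1* KO 1 was the highest clone for 22 of the 43 canonical members (51.2%), against 21.5% of all genes tested, and *Snd1* KO 2 was the lowest for 15 (34.9%), against 14.7%. All 7 α subunits, 8 of 8 lid genes and 3 of 3 non-ATPase base genes were above their own 6-clone mean in KO 1, as were 5 of 7 β subunits, 4 of 6 ATPases, 2 of 4 activators and 2 of 7 assembly chaperones, against 50.2% of all genes tested. Across 63 related genes, KO 1 was the highest clone for 24 and KO 2 the lowest for 20, and the lists differed. KO 1 was highest for 6 of 8 CCT chaperonin genes and 6 of 12 genes of p97 and ER-associated degradation. KO 2 was lowest for 1 and 10 of them. In the COP9 signalosome these counts were 4 and 3 of 10, and among other proteasome parts and partners 4 and 3 of 17. They were 2 and 2 of 7 regulators, 2 and 1 of 6 ubiquitin genes and activating enzymes, and 0 and 0 of 3 immunoproteasome genes. The median deviation of the 17 genes of the 19S base and lid was 0.19 on the log2 scale in KO 1 and −0.13 in KO 2. Cell markers differed between the same clones, since *Gcg* was 1100 TPM in KO 1 and 55.2 TPM in KO 2, and *Ins1* was 2059 TPM in KO 1 and 11945 TPM in KO 2. Their part in the pattern was not tested. Since 1 library was made per clone, clone and library cannot be told apart.

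Of the members higher in KO 1 than in KO 2, the largest differences were in 2 alternative caps, a base scaffold, the regulator *Psmf1* and 2 lid genes. *Psme4* was at 92.0, 104 and 87.7 TPM in the controls and at 133, 81.8 and 89.9 TPM in *Snd1* KO, a log2 difference of 0.70 between KO 1 and KO 2. *Psme3* was at 122, 128 and 103 TPM in the controls and at 147, 93.6 and 115 TPM in *Snd1* KO, a difference of 0.65. *Psmd1*, *Psmf1*, *Psmd12* and *Psmd14* followed with 0.62, 0.61, 0.57 and 0.55. In all 6 genes KO 1 was the highest and KO 2 the lowest of the 6 clones.

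Some members ran the other way. *Psme1* was at 28.8, 25.3 and 19.5 TPM in the controls and at 18.7, 30.1 and 25.3 TPM in *Snd1* KO, lowest in KO 1 and highest in KO 2 (KO 1 minus KO 2 of −0.66 on the log2 scale). *Psmg3* was at 7.56, 8.74 and 11.3 TPM in the controls and at 7.67, 11.9 and 9.39 TPM in *Snd1* KO, with the same order of KO 1 and KO 2 (−0.58). *Psme2*, *Psmd9*, *Psmg4* and *Psmg2* were also at their lowest of the 6 clones in KO 1. A further set was highest in control 3, namely *Psma7*, *Psmb1*, *Psmb3*, *Psmb4*, *Psmb5*, *Psmc4* and *Psmd8*, of which *Psmb3* went furthest at 167 TPM against 116 to 137 TPM in the other clones.

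**Figure D4:**
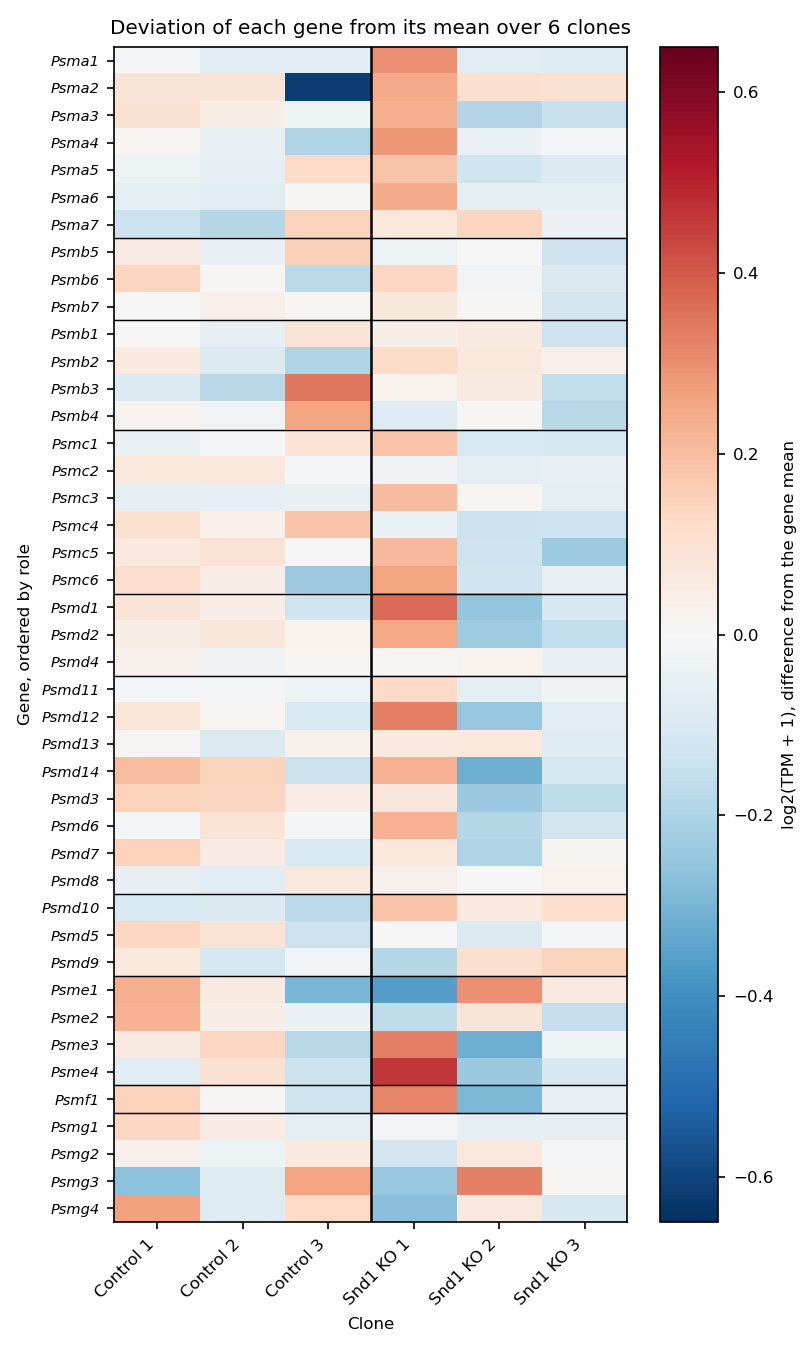
Deviation of each of the 43 canonical genes from its mean over the 6 clones, in log2(TPM + 1), with genes ordered by role (black lines) and the control clones left of the vertical line. The Snd1 KO 1 column is red for the 7 α subunits and most 19S genes, the Snd1 KO 2 column is blue for most lid genes, and the darkest cell is Psma2 in control 3 (−0.62).

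Transcript length moved with this pattern in 4 of the 6 clones. Across the 43 members, the Spearman correlation of a gene's deviation with its principal transcript length was 0.497 in KO 1, −0.537 in KO 2, 0.479 in control 2 and −0.344 in control 3, and over the 12729 genes tested with a principal transcript it was 0.054, −0.197, 0.231 and −0.293. In control 1 and KO 3 it was 0.128 and 0.069 over the members and 0.118 and 0.182 over all these genes. These are descriptions over genes of 1 library each, and the part of length in the pattern was not tested.

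The comparison between groups moved with the clones left out. Of the 45 members, 13 lay above 0 without KO 1, 19 without control 3, and 26 without KO 2 as well as without KO 3, with medians of −0.078, −0.041, 0.0089 and 0.014. Since the 19S genes were high in KO 1, leaving out that clone lowers their difference by construction, and they are described here after that was seen. Without KO 1, 14 of the 17 genes of the 19S base and lid lay below control, with a median log2 difference of −0.12 in place of −0.018, and in 8 of them every remaining *Snd1* KO clone was below every control, against 10.9% of all genes under the same omission. *Psmd2*, *Psmd3*, *Psmc4* and *Psmc5* then had unadjusted p-values under 0.05 (lowest adjusted p = 0.256, limma), as did 14.3% of all genes.

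The members varied less between clones than most genes within their range of levels. This range ran from 9.43 to 836 TPM. Levels were not matched within it, so the part of level in this difference was not tested. The median CV over the 6 clones was 10.2% for the 43 canonical members, against 14.9% for the 9234 genes with mean levels in the same range. In 48.8% of the canonical members the CV was under 10%, against 24.5% of those genes, and 0 of 43 were over 20%, against 30.4%. Other complexes of many subunits had median CV values of 8.98% (CCT chaperonin) and 8.50% (COP9 signalosome). The largest CV values were 19.4% for *Psmg3*, 19.1% for *Psme4*, 18.98% for *Psme1* and 18.3% for *Psma2*. *Psmd4*, *Psmd8* (3.57%) and *Psmc2* (3.96%) had the smallest.

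The immunoproteasome subunits, which replace the constitutive catalytic subunits after interferon, varied more. *Psmb8* was at 21.1, 13.1 and 3.39 TPM in the controls and at 3.07, 6.20 and 4.27 TPM in *Snd1* KO. Control 1 and control 2 were high and control 3 lay among the *Snd1* KO clones (log2 difference −1.05 ± 0.59, adjusted p = 0.656). *Psmb10* was at 8.46, 5.79 and 4.12 TPM in the controls and at 2.39, 4.71 and 4.09 TPM in *Snd1* KO (−0.58 ± 0.30, adjusted p = 0.637). *Psmb9* was between 2.32 and 4.18 TPM in all clones (−0.12 ± 0.25, adjusted p = 0.914). None of the 3 passed the test.

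Set against their constitutive partners on the principal transcript scale, the inducible subunits were minor. *Psmb8* was 19.2%, 12.8% and 2.87% of *Psmb5* in the controls and 2.96%, 5.83% and 4.42% in *Snd1* KO. *Psmb9* was 1.45% to 2.81% of *Psmb6*, and *Psmb10* was 1.53% to 5.72% of *Psmb7*. The 2 controls with most *Psmb8* were also those with most *Pdgfra*, whose values are given above, and the part of other cells in it was not tested.

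**Figure D5:**
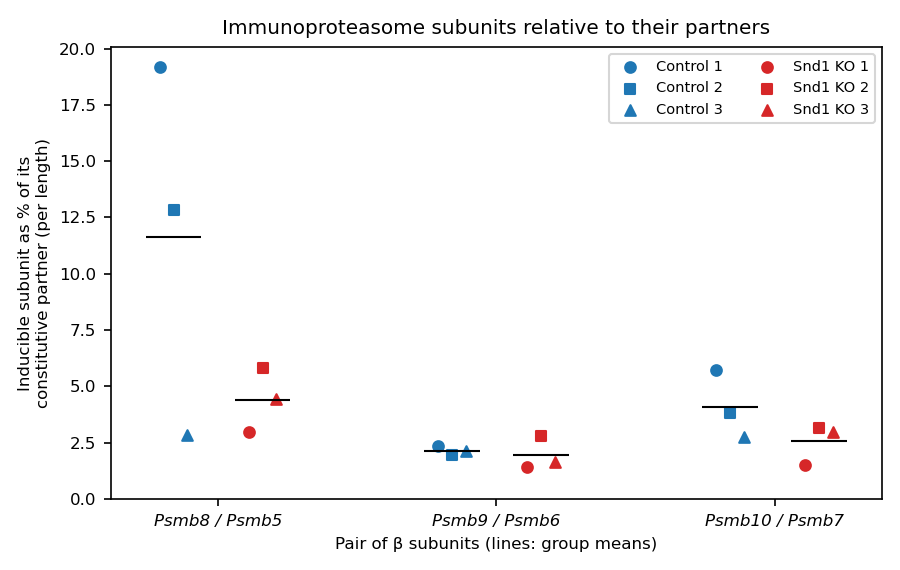
Level of each inducible subunit as a percentage of its constitutive partner, per length, in each control (blue) and Snd1 KO (red) clone, with group means as lines. Psmb8 reaches 19.2% and 12.8% of Psmb5 in controls 1 and 2 and stays at or below 5.83% in the other 4 clones, and Psmb9 stays at or below 2.81% of Psmb6.

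Regulators, partners and relatives of the proteasome were followed in 64 further genes, 63 of which were found (*Paaf1* was not analysed here). Of these, 0 were called and 1 was at an unadjusted p-value under 0.05, against 7.96% of all genes. This was *Nfe2l2*, which encodes NRF2, an activator of the antioxidant response and of proteasome genes under oxidative stress. It was at 40.2, 38.1 and 31.8 TPM in the controls and at 56.9, 51.8 and 50.8 TPM in *Snd1* KO, with every *Snd1* KO clone above every control (log2 difference 0.53 ± 0.12, 95% interval 0.23 to 0.82, adjusted p = 0.543). *Nfe2l1*, which encodes NRF1 and raises proteasome genes when the proteasome is inhibited, was at 66.8, 74.9 and 53.3 TPM in the controls and at 48.4, 44.5 and 58.7 TPM in *Snd1* KO, overlapping (−0.35 ± 0.17, adjusted p = 0.607). Of the NF-Y subunits, which bind the CCAAT box, *Nfya* and *Nfyb* overlapped (log2 differences −0.060 and 0.19). *Nfyc* was 16.4, 15.8 and 16.8 TPM in the controls and 18.7, 20.5 and 18.8 TPM in *Snd1* KO, without overlap (0.23 ± 0.11, adjusted p = 0.608), and is named after its values were seen. In all, 2 of the 63 genes were higher and 5 lower without overlap, beside 9.69% and 4.03% of all genes tested.

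Among 17 other parts and partners, 7 were above 0 with a median of −0.017. *Zfand2a*, an arsenite-inducible partner of the 19S particle, was at 30.6, 27.6 and 28.5 TPM in the controls and at 27.5, 21.01 and 21.7 TPM in *Snd1* KO (−0.30 ± 0.14, adjusted p = 0.607), and the ubiquitin receptor *Adrm1* was at 20.5, 20.9 and 19.5 TPM in the controls and at 19.2, 18.3 and 18.1 TPM in *Snd1* KO (−0.13 ± 0.11, adjusted p = 0.758). Both were lower without overlap. *Uchl5*, a deubiquitinase bound by *Adrm1*, was highest in KO 1 at 55.7 TPM against 33.8 to 38.3 TPM elsewhere (0.23 ± 0.17, adjusted p = 0.738). The core maturation factor *Pomp* differed by −0.037.

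In the p97 and ER-associated degradation list, 1 of 12 was above 0 and the median was −0.091. *Derl1*, a channel component with the lowest p-value of the list, was at 258, 259 and 239.7 TPM in the controls and 235, 196 and 226 TPM in *Snd1* KO, lower without overlap (−0.21 ± 0.11, adjusted p = 0.644). Of 6 ubiquitin genes and activating enzymes, 0 were above 0, with *Uba1* at −0.25 ± 0.16 (adjusted p = 0.695). The COP9 signalosome, a complex built like the lid, had 3 of 10 above 0 and a median of −0.094 (*Gps1* −0.17, *Cops8* −0.11). The CCT chaperonin, another ring of many subunits, had 2 of 8 above 0 and a median of −0.054 (*Cct5* 0.13, *Cct4* −0.13). None of these lists held a called gene. Over all genes tested, 57.3% were above 0 and the median was 0.044.

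Promoters were searched on both strands for short motifs. The antioxidant response element core and the CCAAT box are linked to regulators named above. The ETS-type core is not, and no ETS factor was among the genes followed. RefSeq windows from 250 bases before to 50 bases after the start (GRCm38.p6) matched 39 of the 47 members. The antioxidant response element core TGACNNNGC was in 6 of the 39 (15.4%: *Psmb5*, *Psmb6*, *Psmc6*, *Psmd9*, *Psmd12* and *Psme4*), beside 14% of 27025 genes with a window and 16.9% of the 10860 of them that were tested. The CCAAT box was in 14 (35.9%), beside 41.1% and 43.3%. The ETS-type core CCGGAAG was in 15 (38.5%), beside 9.93% and 19.6%. The motifs were chosen with the fold changes known and do not overlap each other in the sequences printed here. Shown are *Psmb5* and *Psmb6*, catalytic genes with the antioxidant core close to the start, *Psmc6*, with that core and the ETS-type core, and *Psme3*, with a CCAAT box (as ATTGG on the opposite strand) and the ETS-type core and a wide spread between clones. Capitals mark the motif in either strand, and each run stops before the RefSeq start or before the first annotated exon base, whichever comes first. The windows are chr14:54618023-54618245 (minus strand), chr11:70525107-70525356 (plus), chr14:45329574-45329787 (plus) and chr11:101315963-101316212 (plus), in that order.
Psmb5: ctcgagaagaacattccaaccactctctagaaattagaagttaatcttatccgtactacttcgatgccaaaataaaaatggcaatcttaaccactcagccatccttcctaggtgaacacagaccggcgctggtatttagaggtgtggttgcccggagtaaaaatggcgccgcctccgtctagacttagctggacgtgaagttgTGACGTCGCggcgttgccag
Psmb6: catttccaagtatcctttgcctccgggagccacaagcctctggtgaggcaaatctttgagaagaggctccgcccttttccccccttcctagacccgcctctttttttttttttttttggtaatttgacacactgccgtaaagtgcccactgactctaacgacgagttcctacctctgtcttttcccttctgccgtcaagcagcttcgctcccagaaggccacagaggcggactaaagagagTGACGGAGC
Psmc6: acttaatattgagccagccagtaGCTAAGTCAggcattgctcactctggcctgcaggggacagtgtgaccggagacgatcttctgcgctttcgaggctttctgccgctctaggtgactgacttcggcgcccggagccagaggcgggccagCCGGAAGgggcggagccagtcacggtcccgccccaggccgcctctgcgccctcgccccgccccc
Psme3: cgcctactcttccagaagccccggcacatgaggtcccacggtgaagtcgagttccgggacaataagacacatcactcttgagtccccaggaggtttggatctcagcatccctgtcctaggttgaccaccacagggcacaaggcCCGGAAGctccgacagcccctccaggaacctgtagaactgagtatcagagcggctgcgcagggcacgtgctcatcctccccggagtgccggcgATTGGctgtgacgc

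Counted from the RefSeq start on which each window was set, the core ends directly before the start in *Psmb6* and 39 bases before it in *Psmb5*, where the printed run is shorter because a GENCODE M21 exon begins upstream of that start. Of the canonical members with a window, the 6 with the antioxidant core had a median log2 difference of 0.030 and ranged from −0.11 to 0.075, and the 30 without it had a median of −0.018. The 14 with the ETS-type core had a median of −0.0013 and the 22 without it −0.021. In *Snd1* KO 1 the median deviations were 0.207 with and 0.104 without the ETS-type core, 0.208 with and 0.096 without the CCAAT box, and 0.196 with and 0.156 without the antioxidant core. A match is a description of these letters only.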

How the data were processed

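The members, the gene lists and the tests were chosen with earlier results of these data known. Total RNA of each clone was made into cDNA libraries with a kit that does not mark strand and sequenced as paired ends of 100 bases. Read processing by the authors ran on Genialis, and TPM per gene was deposited for each clone. The submitters' processing notes name FastQC, Trimmomatic, HISAT2, HTSeq and DESeq2 and the build mm10, and the annotation release is not given in the sources used here. Of 53801 mouse genes, 53706 matched GENCODE M21, and 99 spike-in rows were left out. Reads were recovered from steps in the TPM values, of which 99.80% came out whole within 0.01 read. This depth covers counting error only, and differences between clones limit the precision.

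From the deposited TPM, log2(TPM + 1) was fitted for the 17823 genes averaging 0.5 TPM or more with limma 3.58.1 in R 4.3.3 (lmFit, eBayes with trend, Benjamini-Hochberg adjustment). Differences are on that log2 scale and understate those of low genes. A call needed both an adjusted p below 0.05 and a change of 2-fold or more. With 3 clones against 3, an exact permutation test of 1 gene cannot go below 0.1. The fit was also run on simulated data with independent noise for each gene and no differences shared by a clone. That run cannot show how many changes the fit would miss in these clones. Every member is named. Full statistics are given for the 8 members of lowest p-value, members whose groups do not overlap, and *Psmb5*, *Psmb6*, *Psmb7*, *Psmd14* and *Psmd4*, and for the 2 genes of lowest p-value in each related list with a few set genes. A few genes that this rule or the marker lists name are not reported here. Of the members, *Psma5*, *Psmb5*, *Psmd9*, *Psme2* and *Psme2b* share over 15% of their windows of 100 bases with other genes, and reads of overlapping or antisense genes cannot be told apart. The alternatives were another pseudocount, other filters, quantile and median-ratio scaling, length over the union of exons, voom, eBayes without trend, clone weights, a replicate block and leaving out clones. Levels, motifs and plots were made with Python 3.11.15, numpy 2.4.6, pandas 2.3.3, scipy 1.17.1 and matplotlib 3.10.9.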

Additional observations from a re-analysis of the deposited data

How the results depend on the processing

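The count of members called was 0 under all alternatives except clone quality weights, where it was 1. This was *Psme2b* (log2 difference −1.08, adjusted p = 0.0298), and *Psmd3* passed the adjusted p-value without reaching 2-fold (−0.30, adjusted p = 0.0362). These weights were 0.279 for control 3 and 0.286 for *Snd1* KO 1 and up to 3.91 for *Snd1* KO 3, and with them 32.6% of all genes had an unadjusted p-value under 0.05. Under them *Snd1* itself passed (−2.31, adjusted p = 0.0195). The count of members at an unadjusted p-value under 0.05 was 2 without a filter (*Psmd10* and *Psmc4*), 1 with a filter at 5 TPM and 1 with union length (*Psmd10* in both), 1 with quantile normalization (*Psme2b*) and 9 with clone quality weights, beside 5.82% to 8.42% of all genes under the first 4 of these. Leaving out each clone in turn gave 0 to 4, with 4 without *Snd1* KO 1 and 1 (*Psme2b*) without control 3, beside 4.26% to 14.3% of all genes. Without both of these clones, an alternative chosen after seeing the data, it was 8 and 26.7% of all genes passed. Members whose groups do not overlap numbered 8 with quantile normalization and 7 with voom (14.2% of all genes in both), 6 to 14 without each clone in turn (14 without *Snd1* KO 1 and 11 without control 3, where 33.5% and 35% of all genes did not overlap, and 18.1% to 21.8% in the other omissions) and 30 without both clones, where 61% of all genes did not overlap. Related genes at an unadjusted p-value under 0.05 numbered 2 without a filter, 3 with quantile normalization, 3 with median-ratio scaling, 2 with union length and 2 with voom (5.82% to 8.71% of all genes), 25 with clone quality weights (32.6%), 1 to 8 without each clone in turn (8 without *Snd1* KO 1, 5 without control 3) and 28 without both clones (26.7%). The direction turned under at least 1 alternative in 28 of the 45 members. Among those with full statistics, the direction of *Psmb6* turned with median-ratio scaling (−0.026), clone quality weights (−0.12), without control 3 (−0.065), without *Snd1* KO 1 (−0.047) and without both (−0.13), with 0.092 at most when 1 clone was left out. That of *Psmb7* turned without *Snd1* KO 3 (0.028, with −0.069 as the lowest value when clones were left out), and that of *Psmd4* without control 1 (0.0014) and without *Snd1* KO 3 (0.011, with −0.024 as the lowest). The cause of these changes was not tested. The replicate numbers did not pair the clones, since deviations of same-numbered clones had correlations of 0.0507, −0.122 and −0.0736. With the replicate block 0 members were called and 0 had an unadjusted p-value under 0.05. Members above 0 numbered 20 of 45, 13 with median-ratio scaling, 10 with clone quality weights and 13 to 26 without each clone in turn. Canonical members had at least 147 reads in each clone, and *Psme2b* had 3 to 16, so counting error limits the values of *Psme2b*.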
